A study of Mus musculus with 28 samples.

Results

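The MYC network comprises the activators Myc, Mycn and Mycl, their obligate partner Max, and the repressive partners of Max, which are Mnt, Mxd3, Mxd4 and Mxi1. These 8 mouse genes were taken by symbol from a table of 17295 genes, and 7 of them had values. Mycn was not analysed here. They were followed in 28 mRNA-seq libraries in 14 groups of 2, made from induced neural stem cell lines (miNSC), from untransduced fibroblasts and from neural stem cells (NSC). The question was how these genes differed between miNSC lines made with cocktails containing the factor written M and lines made without it.

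The lines with M, called M lines here, were K/M/eSox17FNV (KMF) from Sox2-GFP embryonic fibroblasts, KMF from Sox2-GFP tail-tip fibroblasts of age 1.0y, B/K/M/eSox17FNV (4F) from the same tail-tip source at passage 8 and again at passage 18, and 4F from Sox2-GFP ear fibroblasts of age 1.0y. The lines without M were K/eSox17FNV (KF) and B/K/eSox17FNV (BKF) from Sox2-GFP embryonic fibroblasts, BKF from the tail-tip source, and KF and BKF from embryonic fibroblasts labelled ICR. All miNSC had received M2rtTA and doxycycline-inducible lentiviruses, were exposed to doxycycline for a limited time, and were picked as colonies before expansion. The 2 libraries of a group may therefore descend from 1 colony. The p-values of the main fit measure the spread between the 2 libraries of a group, pooled over all 14 groups. The untransduced groups, all Sox2-GFP, were tail-tip fibroblasts of age 1.0y, tail-tip and skin fibroblasts of age 2.5y, and NSC of age 2.5y, whose 2 libraries came from passages 2 and 5. The labels spell out only the engineered Sox17 and not the letters B, K and M. The sample titles give a passage only for the tail-tip 4F line and for NSC. The deposited values are not split between chromosomal and lentiviral transcripts of a gene. Untransduced embryonic and ear fibroblasts were not analysed here.

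MYC proteins bind DNA only as dimers with MAX and favour the sequence CACGTG, the E-box, at genes for ribosome assembly, nucleotide synthesis and the cell cycle. MNT and the MXD proteins, among them MXI1, compete for MAX and recruit the SIN3 and histone deacetylase corepressors to the same sites. In neural tissue MYC and MYCN are known for the expansion of progenitors, MYCL was first found as a relative of MYC in lung cancer, and several MXD genes are expressed as cells leave the cycle.

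The E-box also occurs in front of some of the network's own genes. RefSeq promoter windows on GRCm38.p6, running from 250 bases before to 50 bases after a gene's start, were held for 7 of the 8 genes, Mycn included and Myc not, and 3 of these 7 genes (Max, Mnt and Mxd4) contained CACGTG, a palindrome that reads alike on both strands. Of all 27025 genes with a window, 8.09% contained it. By RefSeq's starts, the match began 3 bases before the start of Max and spanned it, began 123 bases before the start of Mnt and began 219 bases before that of Mxd4. The 60 bases around each match are shown because these are the members whose promoter windows carry the network's own recognition sequence, which is in capitals.
Max, minus strand of chr12:76962219-76962278: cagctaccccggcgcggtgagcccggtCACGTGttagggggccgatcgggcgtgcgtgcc
Mnt, plus strand of chr11:74830774-74830833: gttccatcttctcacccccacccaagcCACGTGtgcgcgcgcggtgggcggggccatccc
Mxd4, minus strand of chr5:34187897-34187956: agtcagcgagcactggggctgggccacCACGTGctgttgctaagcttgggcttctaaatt
A match to these letters is no measure of binding.

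On the annotation of the same build, whose gene ends can differ from RefSeq's starts, the activators lie at chr15:61985391-61990374 (Myc, plus strand) and chr4:122995652-123002485 (Mycl, plus strand), and Max lies at chr12:76937269-76962201 on the minus strand. The repressive partners lie at chr11:74830920-74845725 (Mnt, plus), chr13:55325168-55329823 (Mxd3, minus), chr5:34173883-34187720 (Mxd4, minus) and chr19:53310518-53375810 (Mxi1, plus). Mxd3 overlaps Prelid1 on the opposite strand, and Mxd4 and Mxi1 overlap annotated genes on the opposite strand. Max overlaps Gm47218 on its own strand. Whether reads were counted by strand is not given in the sources used here, so reads of these overlapping pairs may be shared.

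The values are normalised whole numbers with library totals between 15563679 and 15571626, so the sequencing depth is unknown and levels are compared only between libraries, not between genes. The labelled cell types were set against marker genes: the summed level of 10 neural stem markers was 60119 to 94028 in M lines, 76669 to 135379 in lines without M, 75678 to 124777 in NSC and 880 to 1290 in fibroblasts, in which Sox2 and Hes5 were at 0. The summed level of 10 fibroblast markers was 1073 to 3636 in M lines, 616 to 4658 in lines without M, 1390 to 2305 in NSC and 227357 to 249204 in fibroblasts. The 2 NSC libraries stood apart from each other, with 3141 genes differing over 2-fold between them, against 787 to 1201 genes within the other groups. Results against NSC are therefore given with their dependence on these 2 libraries. This pair also enters the shared estimate of the spread, and so the SE and p of every comparison in the fit of all groups. Its log2 SD within the group was 3.31 for Mxd3, 0.85 for Mxd4 and 0.71 for Mxi1. Within M lines these were 0.68, 0.05 and 0.18, and within lines without M 0.30, 0.10 and 0.11. For Myc and Max the NSC pair had 0.14 and 0.16, below the 0.51 and 0.17 within M lines. The part of the marker levels in the results was not tested, and in such bulk libraries fewer cells of a type and less RNA per cell cannot be told apart.

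Myc, the transcription factor for which the network is named, was not higher in M lines than in lines without M. Among M lines it had 3666 and 3427 in embryonic KMF, 466 and 531 in tail-tip KMF, 3000 and 1464 in tail-tip 4F at passage 8, 490 and 1138 at passage 18, and 1444 and 1362 in ear 4F. Among lines without M it had 3857 and 3733 in embryonic KF, 2704 and 2682 in embryonic BKF, 1400 and 1282 in tail-tip BKF, 2360 and 2504 in ICR KF, and 1220 and 1099 in ICR BKF. The highest group of all 14 was thus made without M, and an M line, tail-tip KMF, had the lowest level among the miNSC, below every library made without M. Untransduced cells had 544 and 546 in tail-tip fibroblasts of age 1.0y, 1510 and 1732 in those of age 2.5y, 1742 and 1710 in skin fibroblasts, and 455 and 398 in NSC. In the order of the 14 group levels, 6 of the 13 neighbouring pairs overlapped, but the top 4 groups (embryonic KF, KMF and BKF, then ICR KF) did not overlap one another.

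**Figure D1:**
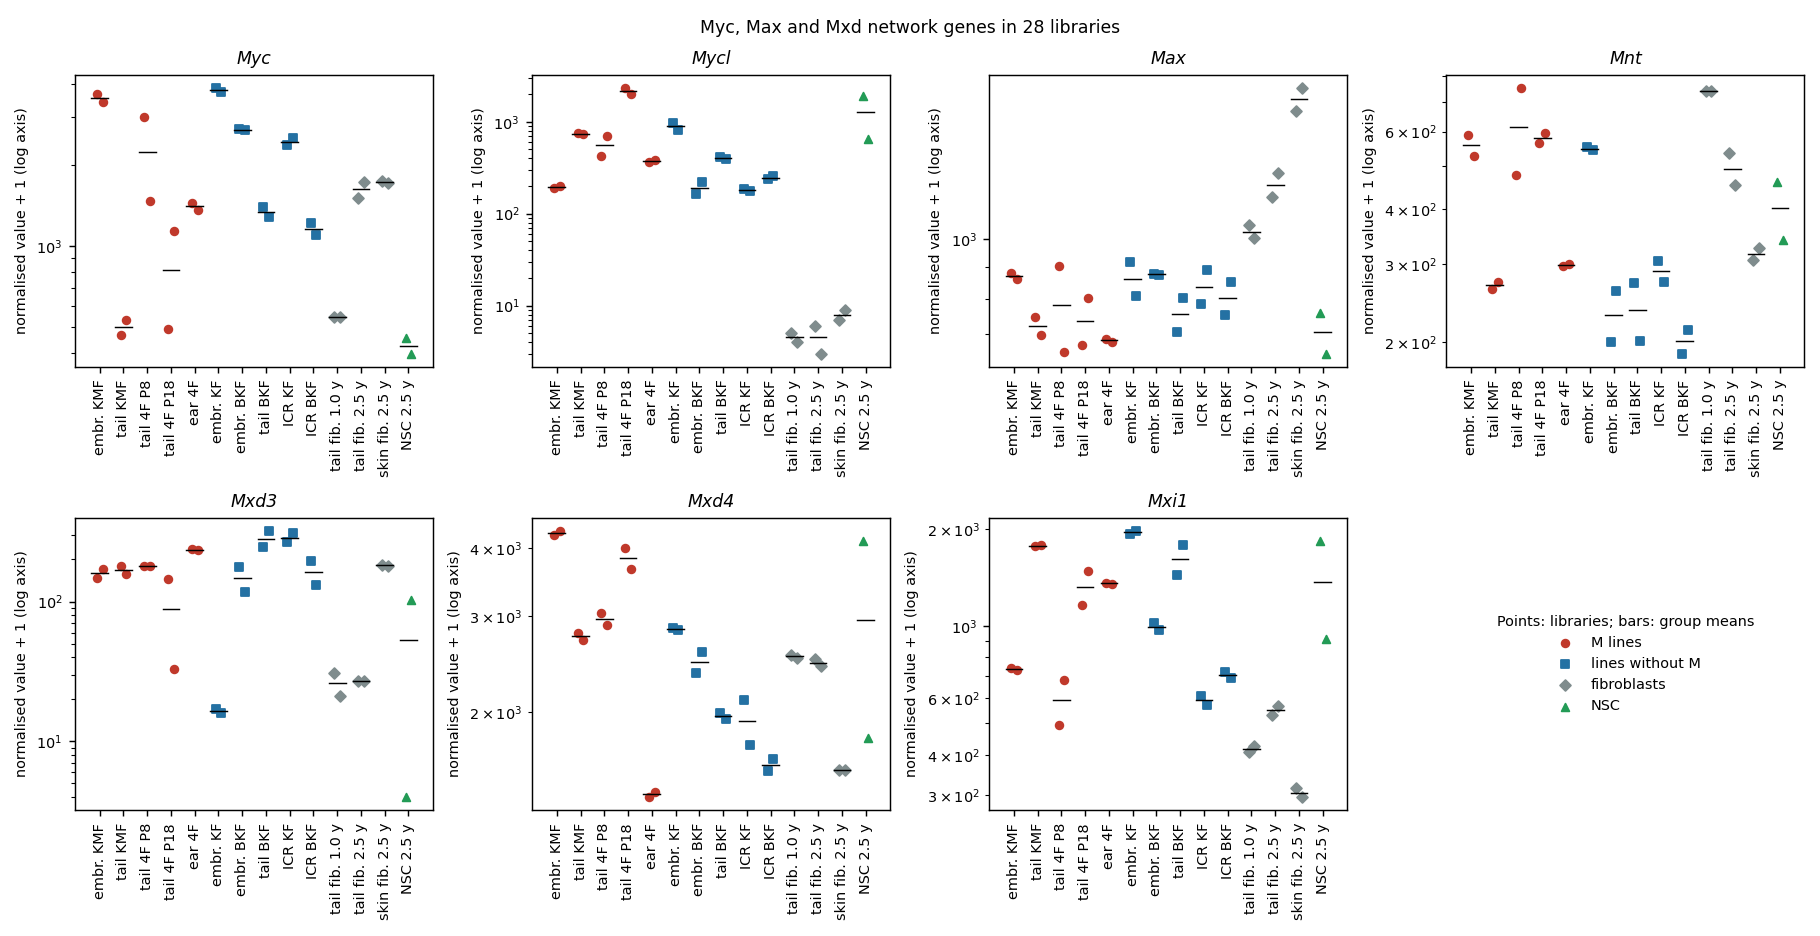
Deposited normalised values of the 7 network genes in each of the 28 libraries, 1 panel a gene and 1 point a library, with the bar at the mean of the 2 libraries. Groups run from M lines through lines without M to fibroblasts and NSC. Myc spans 466 to 3666 in M lines and 1099 to 3857 in lines without M, and Mycl stays between 2 and 8 in fibroblasts.

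With each of the 5 M groups and the 5 groups without M weighted equally, the limma fit called 4 of the 7 network genes, against 26.5% of all 16275 tested genes. Myc was lower in M lines (log2 fold change −0.66 ± 0.13, SE, adjusted p = 0.00155), whereas Mycl (0.88 ± 0.17, adjusted p = 0.0012), Mnt (0.64 ± 0.09, adjusted p = 4.95e-05) and Mxd4 (0.43 ± 0.10, adjusted p = 0.00491) were higher. Max (−0.13 ± 0.06, adjusted p = 0.127), Mxd3 (0.27 ± 0.42, adjusted p = 0.698) and Mxi1 (0.01 ± 0.10, adjusted p = 0.962) did not pass. The libraries of both sides overlapped for all 7 genes, and only 0.0184% of all tested genes did not overlap.

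These pooled calls rested on counting the 2 libraries of a line as separate samples. With each group's mean as 1 sample, limma called 0 of the 16275 genes, 632 of which had an unadjusted p under 0.05, and every network gene had an adjusted p of 1. With the line as the unit (4 lines with M and 5 without, the passages averaged), an exact two-sided permutation test, whose smallest possible p is 0.0159, gave a difference of −0.65 for Myc (unadjusted p = 0.349), 0.65 for Mycl (p = 0.381), 0.53 for Mnt (p = 0.183) and 0.37 for Mxd4 (p = 0.31). The same exact test gave −0.13 for Max (p = 0.143), 0.38 for Mxd3 (p = 0.913) and 0.08 for Mxi1 (p = 0.857). Origin, strain and the letter B are not balanced between the sides, so the comparisons within 1 origin follow.

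The Myc difference had opposite signs in embryonic and tail-tip lines, and neither value passed the test. Its sign also varied within each origin, as the single comparisons below show. Among embryonic Sox2-GFP lines alone its log2 difference between KMF and the mean of KF and BKF was 0.15 (adjusted p = 0.739), and among tail-tip lines alone it was −0.54 for the M groups against BKF (adjusted p = 0.154). Mycl had −1.08 among embryonic lines (adjusted p = 0.0256), opposite to its pooled sign, a value that averages −2.19 against KF and 0.04 ± 0.38 against BKF (adjusted p = 1). In tail-tip KMF against BKF, Mycl did not pass (0.88 ± 0.38, adjusted p = 0.157; 0.0392 with the groups compared alone and 0.0315 with NSC left out). Mxi1 was lower in M lines when ICR lines were left out (−0.46, adjusted p = 0.00981) and among embryonic lines alone (−0.92, adjusted p = 0.0022), although its pooled difference was 0.01. Without passage 18 the pooled difference of Mycl was 0.40 (adjusted p = 0.15), and without ICR lines those of Mycl and Mxd4 were 0.50 (adjusted p = 0.0925) and 0.25 (adjusted p = 0.161).

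In the 2 tested comparisons that add M to an otherwise shared cocktail, Myc itself did not pass the test. Tail-tip 4F was tested against BKF at passage 8 only. At passage 18 the 4F libraries, with 490 and 1138, lay below BKF with 1400 and 1282. Embryonic KMF with 3666 and 3427 and embryonic KF with 3857 and 3733 gave a log2 fold change of −0.10 ± 0.30 (adjusted p = 0.87), and the KMF libraries lay just below the KF libraries. Tail-tip 4F at passage 8, with 3000 and 1464, lay above BKF with 1400 and 1282, giving 0.65 ± 0.30 (adjusted p = 0.128). That value rested on 1 library: it was 0.13 without the first passage 8 library and 1.16 without the second (adjusted p = 0.0105).

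Where M stood in place of B, the result for Myc differed with origin. Tail-tip KMF, with 466 and 531, was lower than tail-tip BKF with 1400 and 1282 (−1.43 ± 0.30, adjusted p = 0.00481), and it was the 1 of 7 network genes called there, against 13% of all genes. Embryonic KMF, with 3666 and 3427, lay above embryonic BKF with 2704 and 2682 without passing the test (0.40 ± 0.30, adjusted p = 0.477; 0.0403 with the groups compared alone in the fit). The difference between the 2 contrasts, tail-tip minus embryonic, was −1.82 ± 0.42 for Myc (adjusted p = 0.00909), in a test added after the values were seen that called 2 of the 7 genes, against 13.1% of all genes.

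Mycl, the second activator with values, was nearly absent from fibroblasts and present in every miNSC and NSC library. It had 190 and 197 in embryonic KMF, 744 and 730 in tail-tip KMF, 422 and 696 in tail-tip 4F at passage 8, 2336 and 2000 at passage 18, and 366 and 382 in ear 4F. Without M it had 966 and 814 in embryonic KF, 163 and 218 in embryonic BKF, 414 and 389 in tail-tip BKF, 186 and 176 in ICR KF, and 236 and 255 in ICR BKF. The passage 18 libraries were the highest of all 28, and the embryonic and ICR lines other than embryonic KF held the 4 lowest miNSC groups. NSC had 1892 and 652, and the 6 fibroblast libraries had 2 to 8, far below every other library.

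**Figure D2:**
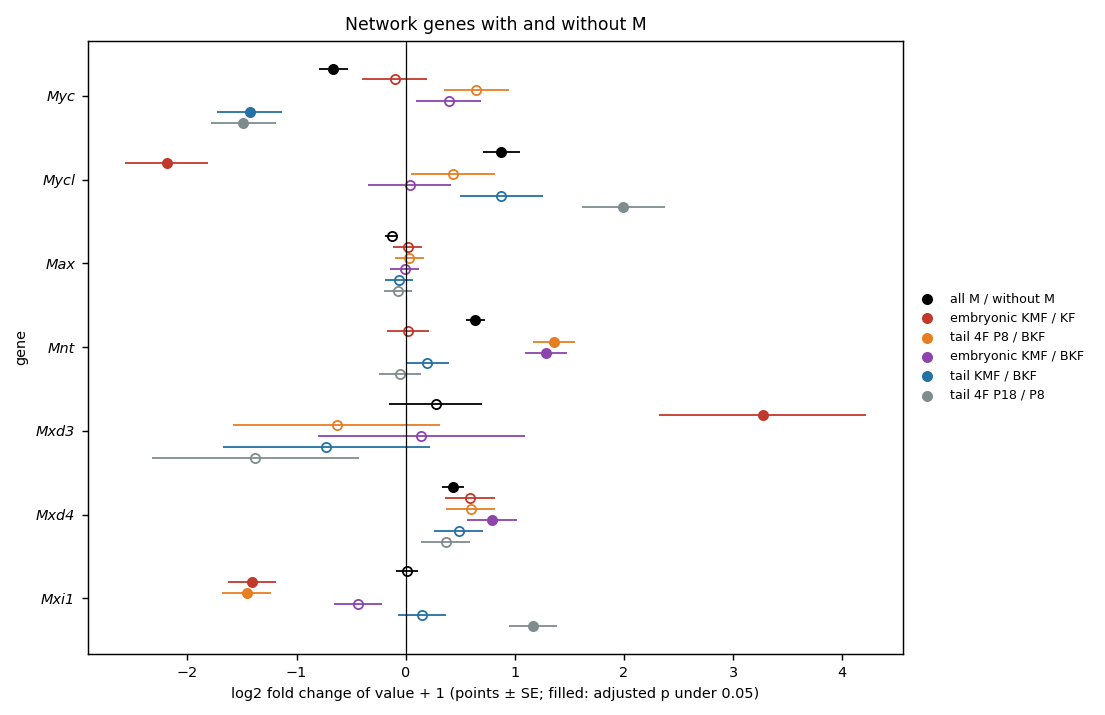
Log2 fold changes of value + 1 for the 7 network genes in the comparisons of lines with M against lines without M and of passage 18 against passage 8 (points with SE; filled points have a limma adjusted p under 0.05). Myc was called lower in tail-tip KMF against BKF and in passage 18 against passage 8, and Mycl changed in opposite directions in embryonic KMF against KF (−2.19) and in passage 18 against passage 8 (1.99).

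Adding M to KF in embryonic lines was accompanied by lower Mycl (−2.19 ± 0.38, adjusted p = 2.7e-04), the KMF libraries lying below the KF libraries without overlap. In that comparison 3 of the 7 network genes were called, against 39.1% of all genes. In the tail-tip comparison of 4F passage 8 with BKF, Mycl did not pass (0.43 ± 0.38, adjusted p = 0.442), and 2 of the 7 genes were called, against 26.1% of all genes. The difference between these 2 contrasts, tail-tip minus embryonic, was 2.62 ± 0.54 for Mycl (adjusted p = 0.0022), and it was called for 3 of the 7 genes, against 22.9% of all genes. For Myc it was 0.74 ± 0.42 (adjusted p = 0.236; 0.0329 without the second passage 8 library). Their background cocktails also differ by the letter B, so origin and background cannot be told apart.

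Max, the partner shared by activators and repressors, varied least. It had 655 to 905 with a median of 721 over the 10 libraries of M lines, 706 to 916 with a median of 829 over the 10 without M, 758 and 650 in NSC, and 1002 to 1764 with a median of 1225.5 in the 6 fibroblast libraries. All fibroblast libraries lay above all miNSC and NSC libraries. The 3 fibroblast groups did not overlap one another (1615 and 1764 in skin, 1169 and 1282 in tail-tip of age 2.5y, 1052 and 1002 in tail-tip of age 1.0y), whereas every neighbouring pair among the miNSC and NSC groups overlapped. No comparison between lines with and without M called Max, although the pooled difference passed without the first passage 8 library (−0.17, adjusted p = 0.017).

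Mnt, a MAX-binding repressor that is broadly expressed, had 588 and 526 in embryonic KMF, 263 and 272 in tail-tip KMF, 476 and 753 in tail-tip 4F at passage 8, 564 and 593 at passage 18, and 296 and 299 in ear 4F. Without M it had 552 and 543 in embryonic KF, 199 and 260 in embryonic BKF, 271 and 200 in tail-tip BKF, 304 and 273 in ICR KF, and 187 and 212 in ICR BKF. Embryonic KF was the only group without M to reach the level of the 3 high M groups, and tail-tip KMF and ear 4F lay near the remaining lines without M. Fibroblasts had 740 and 742 in tail-tip of age 1.0y, 535 and 452 in tail-tip of age 2.5y and 306 and 326 in skin, and NSC had 461 and 340.

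Relative to BKF, Mnt was higher in embryonic KMF (1.29 ± 0.19, adjusted p = 3.92e-04) and in tail-tip 4F at passage 8 (1.36 ± 0.19, adjusted p = 9.45e-05), with no overlap of libraries in either. Both calls were lost when the fit held the compared groups alone (adjusted p = 0.0547 and 0.14). Tail-tip KMF did not differ from BKF beyond the test (0.20 ± 0.19, adjusted p = 0.592), nor embryonic KMF from KF (0.02 ± 0.19, adjusted p = 0.984). The KMF against BKF contrast differed between origins by −1.09 ± 0.27 (adjusted p = 0.0155), a call lost on leaving out 4 of its 8 libraries. The contrast that adds M differed by 1.34 ± 0.27 between tail-tip and embryonic lines (adjusted p = 0.00218, and 0.0597 with the compared groups alone). The background cocktails of these lines also differ.

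Mxd4, a MAX-binding repressor of the MXD family, had its highest level in embryonic KMF, with 4242 and 4304. It had 2798 and 2716 in tail-tip KMF, 3047 and 2899 in tail-tip 4F at passage 8, 4004 and 3666 at passage 18, and 1397 and 1427 in ear 4F, which was the lowest of the 14 groups. Without M it had 2854 and 2834 in embryonic KF, 2360 and 2585 in embryonic BKF, 1994 and 1943 in tail-tip BKF, 2106 and 1742 in ICR KF, and 1560 and 1643 in ICR BKF. Each M group with a BKF counterpart of the same origin lay above it without overlap, and ear 4F has no such counterpart. The tail-tip M groups share the same BKF libraries, and passages 8 and 18 are the same line. Such separation of 2 libraries from 2 was not particular to Mxd4 among the network genes in these comparisons. Its share over all genes was not computed, so it is not read as a result about Mxd4. Embryonic KMF against BKF was called (0.79 ± 0.23, adjusted p = 0.0359), and it was lost on leaving out any of its 4 libraries (adjusted p up to 0.183). That comparison called 2 of the 7 network genes, against 10.3% of all genes. KMF against KF (0.59 ± 0.23, adjusted p = 0.0514), 4F passage 8 against BKF (0.59 ± 0.23, adjusted p = 0.0659) and tail-tip KMF against BKF (0.49 ± 0.23, adjusted p = 0.19) did not pass, although all 3 passed with NSC left out of the fit (adjusted p between 5.41e-06 and 1.74e-04).

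Mxi1, the MXD family member named for its interaction with MAX, had 740 and 728 in embryonic KMF, 1764 and 1781 in tail-tip KMF, 495 and 682 in tail-tip 4F at passage 8, 1157 and 1476 at passage 18, and 1362 and 1346 in ear 4F. Without M it had 1928 and 1966 in embryonic KF, 1018 and 974 in embryonic BKF, 1434 and 1781 in tail-tip BKF, 608 and 569 in ICR KF, and 720 and 688 in ICR BKF. The 2 highest groups, embryonic KF and tail-tip KMF, lay on different sides of the M comparison. Both tested comparisons that add M called it lower. Embryonic KMF against KF had −1.41 ± 0.22 (adjusted p = 1.12e-04). Tail-tip 4F passage 8 against BKF had −1.46 ± 0.22 (adjusted p = 1.61e-04, and 0.0892 with the compared groups alone). The passage 18 libraries of that 4F line, with 1157 and 1476, overlapped BKF with 1434 and 1781, and this pair of groups was not tested. The difference between the 2 tested contrasts was −0.05 ± 0.31 (adjusted p = 0.955). Tail-tip KMF against BKF was not called (0.15 ± 0.22, adjusted p = 0.759), nor was embryonic KMF against BKF (−0.44 ± 0.22, adjusted p = 0.268; 0.0254 with the compared groups alone).

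Mxd3, the MXD family member found in dividing cells, was lowest in embryonic KF, with 16 and 15. It had 146 and 171 in embryonic KMF, 180 and 156 in tail-tip KMF, 180 and 178 in tail-tip 4F at passage 8, 144 and 32 at passage 18, and 236 and 231 in ear 4F. The other lines without M had 116 to 318, and NSC had 3 and 102, the low value in the passage 2 library. Embryonic KMF exceeded KF without overlap (3.27 ± 0.95, adjusted p = 0.0119), but the call was lost on leaving out 3 of the 4 libraries in turn (adjusted p up to 0.061). In the tail-tip comparison of 4F passage 8 with BKF it was not called (−0.63 ± 0.95, adjusted p = 0.688), nor was it in KMF against BKF among embryonic lines (0.14 ± 0.95, adjusted p = 1) or tail-tip lines (−0.73 ± 0.95, adjusted p = 0.711). The difference between the contrasts that add M, −3.90 ± 1.34 (adjusted p = 0.0471), was lost on leaving out any of the 8 libraries (adjusted p up to 0.115).

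The tail-tip 4F line was sequenced at 2 passages, between which the activators moved in opposite directions. Myc had 490 and 1138 at passage 18, against 3000 and 1464 at passage 8 (−1.49 ± 0.30, adjusted p = 0.00107), and Mycl had 2336 and 2000, against 422 and 696 (1.99 ± 0.38, adjusted p = 7.53e-04). Mxi1 had 1157 and 1476 at passage 18, against 495 and 682 at passage 8 (1.17 ± 0.22, adjusted p = 7.11e-04). These were 3 of 7 genes called, against 35.1% of all genes. The libraries of the passages did not overlap for Myc, Mycl and Mxi1, nor for the uncalled Mxd3 and Mxd4. The share of all genes without overlap was not computed for this comparison. With only these 4 libraries in the fit the adjusted p was 0.232 for Myc, 0.056 for Mycl and 0.0782 for Mxi1. Mxd3 (−1.38 ± 0.95, adjusted p = 0.28) and Mxd4 (0.37 ± 0.23, adjusted p = 0.229) did not pass, and without passage 18 Myc in M lines exceeded fibroblasts by 0.39 (adjusted p = 0.00558).

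Against fibroblasts, 5 of the 7 network genes were called in M lines and 6 of 7 in lines without M, on a background of 75.1% and 74.5% of all genes. Mycl was higher by 6.76 ± 0.20 in M lines (adjusted p = 7.82e-15) and by 5.88 ± 0.20 in lines without M (adjusted p = 5.1e-14). Max was lower, with a log2 fold change of −0.77 ± 0.07 in M lines (adjusted p = 2.09e-08) and −0.64 ± 0.07 in lines without M (adjusted p = 2.19e-07), and Mxi1 was higher by 1.36 ± 0.11 and 1.35 ± 0.11. Mycl, Max and Mxi1 were called in both kinds of line also with group means as samples. Libraries did not overlap those of fibroblasts for 2 of the 7 genes in M lines (Mycl and Max; 38% of all genes) and for 3 of 7 in lines without M (Mxi1 as well; 36.9%). Myc exceeded fibroblasts in lines without M (0.85 ± 0.15, adjusted p = 9.48e-05) and did not pass in M lines (0.19 ± 0.15, adjusted p = 0.283), and with group means as samples the adjusted p in lines without M was 0.303. Mnt was lower in lines without M (−0.80 ± 0.10, adjusted p = 1.56e-06) and did not pass in M lines (−0.17 ± 0.10, adjusted p = 0.147). Mxd3 was higher in M lines (1.59 ± 0.49, adjusted p = 0.00773) and in lines without M (1.32 ± 0.49, adjusted p = 0.0231; 0.0598 without the second tail-tip library of age 1.0y), with 182 and 180 in skin fibroblasts, 26 and 26 in tail-tip of age 2.5y and 30 and 20 in tail-tip of age 1.0y. Mxd4 was higher in M lines (0.42 ± 0.12, adjusted p = 0.00428), a call lost with group means as samples (adjusted p = 0.326). The group means also gave adjusted p of 0.119 for Mnt in lines without M and 0.178 and 0.266 for Mxd3 in M lines and in lines without M. Without the first passage 18 library, Myc passed in M lines (0.31, adjusted p = 0.021), and without passage 18 Mnt passed as well (−0.27, adjusted p = 0.0348). The contrasts share their fibroblast libraries.

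Against the tail-tip fibroblasts of the same source and age, 6 of the 7 genes were called both in tail-tip M lines and in tail-tip BKF, on a background of 64.8% and 61.7%. Myc was higher by 0.75 ± 0.24 in tail-tip M lines (adjusted p = 0.0121; 0.0658 and 0.0676 without either fibroblast library) and by 1.30 ± 0.30 in BKF (adjusted p = 0.00122). Mnt was lower in both, with −0.71 ± 0.16 in M lines (adjusted p = 8.46e-04) and −1.67 ± 0.19 in BKF (adjusted p = 1.27e-06). Mycl (7.74 ± 0.31 and 6.49 ± 0.38), Mxd3 (2.33 ± 0.77 and 3.45 ± 0.95) and Mxi1 (1.40 ± 0.18 and 1.94 ± 0.22) were higher and Max (−0.47 ± 0.11 and −0.45 ± 0.13) lower in M lines and in BKF. Of these, Mxd3 in M lines was lost without the second fibroblast library (adjusted p = 0.115) and Max in BKF without the first BKF library (adjusted p = 0.0722). Mxd4 was not called in either.

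**Figure D3:**
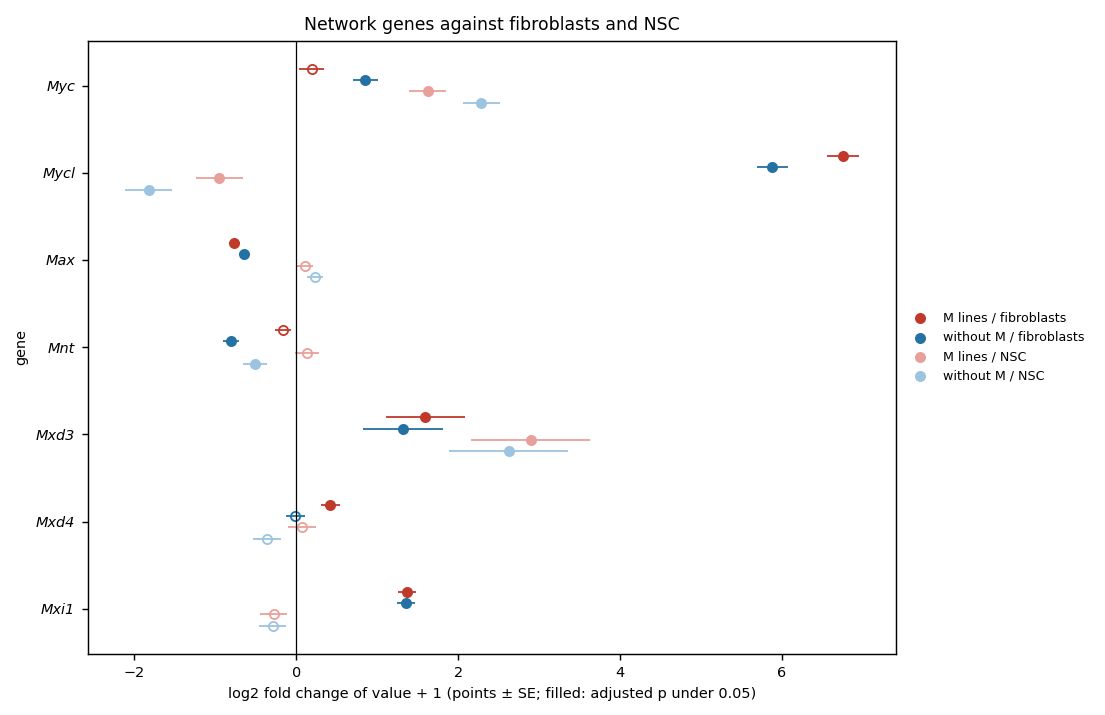
Log2 fold changes of value + 1 of M lines and of lines without M against fibroblasts and against NSC for the 7 network genes (points with SE; filled points have a limma adjusted p under 0.05). Mycl stands 5.88 to 6.76 above fibroblasts and −1.83 to −0.95 relative to NSC, and Max is below fibroblasts in both kinds of line.

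Against NSC, 3 of the 7 genes were called in M lines and 4 of 7 in lines without M, on a background of 39.8% and 39%. Myc was higher by 1.62 ± 0.23 in M lines (adjusted p = 3.84e-05) and by 2.28 ± 0.23 in lines without M (adjusted p = 1.22e-06), and these calls held without either NSC library. Myc was also the 1 of 7 genes whose libraries did not overlap those of NSC, in M lines (15.1% of all genes) and in lines without M (13.5%). In M lines the separation was narrow: tail-tip KMF had 466 and 531 and the first passage 18 library 490, against 455 and 398 in NSC. The other M libraries had 1138 to 3666. Mycl was lower, with −0.95 ± 0.30 in M lines (adjusted p = 0.0176) and −1.83 ± 0.30 in lines without M (adjusted p = 1.48e-04), and the call in M lines was lost without the passage 2 library (−0.18, adjusted p = 0.712). Mxd3 was called higher by 2.89 ± 0.74 in M lines and 2.62 ± 0.74 in lines without M, and both calls were lost without that library (adjusted p = 0.436 and 0.74). Mnt was lower in lines without M (−0.51 ± 0.15, adjusted p = 0.0137), a call also lost without the passage 2 library (−0.29, adjusted p = 0.302).

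The remaining genes did not pass against NSC. Max had 0.10 ± 0.10 in M lines (adjusted p = 0.471) and 0.23 ± 0.10 in lines without M (adjusted p = 0.0868), and Mnt had 0.13 ± 0.15 in M lines (adjusted p = 0.534). Mxd4 had 0.07 ± 0.18 in M lines (adjusted p = 0.799), but it was called with either NSC library left out, in opposite directions: 0.67 without the passage 2 library (adjusted p = 4.01e-06) and −0.53 without the passage 5 library (adjusted p = 2.32e-05). In lines without M, Mxd4 had −0.36 ± 0.18 (adjusted p = 0.117), with 0.24 without the passage 2 library (adjusted p = 0.0216) and −0.96 without the passage 5 library (adjusted p = 5.68e-08). Mxi1 had −0.28 ± 0.17 in M lines (adjusted p = 0.215) and −0.29 ± 0.17 in lines without M (adjusted p = 0.192), and it was called lower in both without the passage 5 library (−0.79, adjusted p = 2.09e-04, and −0.80, adjusted p = 1.8e-04). With group means as samples no network gene was called against NSC.

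Genes that MYC is known to activate were followed as a list of 39, all tested, covering nucleolar and ribosome assembly factors, polyamine and nucleotide synthesis and the cell cycle. They were higher where M was added to a shared cocktail: 33 of 39 rose and 0 fell in embryonic KMF against KF (median log2 fold change 1.25, against −0.0041 over all genes), and 25 rose and 1 fell in tail-tip 4F passage 8 against BKF (median 0.87, against −0.02). Of all genes, 19.9% were called higher and 19.2% lower in the first comparison, and 13.1% higher and 12.9% lower in the second. Lines without M also reached the level of embryonic KMF. The mean log2 level of the list was 11.00 in embryonic KMF and 9.62 in embryonic KF. It was 10.96 in embryonic BKF and 11.05 in ICR KF. Tail-tip 4F had 11.23 at passage 8 but 9.90 at passage 18, below tail-tip BKF with 10.52. Gnl3, a nucleolar GTPase, rose by 1.79 ± 0.08 in the first and 1.29 ± 0.08 in the second, and Mybbp1a, a MYB-binding protein of the nucleolus, rose by 0.99 ± 0.10 in the second. In the first comparison Nolc1, a nucleolar scaffold protein, rose by 1.63 ± 0.12, Srm, spermidine synthase, by 3.10 ± 0.22 and Dkc1, the pseudouridine synthase of small nucleolar particles, by 1.80 ± 0.14. Myc itself was not called in either. Markers of astrocytes moved in the same comparisons: of 6, 1 rose and 4 fell in the first (median −0.75) and 0 rose and 6 fell in the second (median −0.99). Of 10 neural stem markers, 1 rose and 3 fell in each. The part of these markers in the target counts was not tested.

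Where M replaced B, and between passages, the same list gave other counts. In tail-tip KMF against BKF 0 of 39 rose and 20 fell (median −0.58; 6.75% of all genes fell), among them Gnl3 (−0.81 ± 0.08), the transferrin receptor Tfrc (−1.04 ± 0.14) and cyclin D2, Ccnd2 (−1.70 ± 0.24). In embryonic KMF against BKF 1 rose and 0 fell (median 0.03; 5.3% of all genes rose), and the gene that rose was Odc1, ornithine decarboxylase, with 1.60 ± 0.29. In passage 18 against passage 8, 32 of 39 fell and 0 rose (median −1.34; 17.6% of all genes fell and 17.5% rose), including Gnl3 (−1.38 ± 0.08), Tfrc (−1.81 ± 0.14) and Srm (−2.76 ± 0.22). Between these passages 4 of 6 astrocyte markers rose and 1 fell (median 1.99), their mean log2 level being 10.00 at passage 18 and 7.50 at passage 8, and 4 of 10 neural stem markers rose and 1 fell. Their part in the target counts was not tested. Over all M lines against all lines without M, 2 rose and 8 fell (median −0.11; 13.1% of all genes rose and 13.4% fell), the 8 including Cdk4, a cyclin-dependent kinase (−0.33 ± 0.06).

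The mean log2(value + 1) of the 39 genes was 10.99 and 11.01 in the libraries of embryonic KMF, 9.79 and 9.78 in tail-tip KMF, 11.32 and 11.15 in tail-tip 4F at passage 8, 10.02 and 9.78 at passage 18, and 10.67 and 10.73 in ear 4F. Without M it was 9.60 and 9.63 in embryonic KF, 11.00 and 10.91 in embryonic BKF, 10.42 and 10.62 in tail-tip BKF, 10.97 and 11.12 in ICR KF, and 11.02 in both ICR BKF libraries. Embryonic KF thus combined the highest Myc level of the 14 groups with the lowest target mean among the miNSC. Fibroblast groups averaged 10.40 to 10.94, and the NSC libraries had 9.32 and 10.36.

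**Figure D4:**
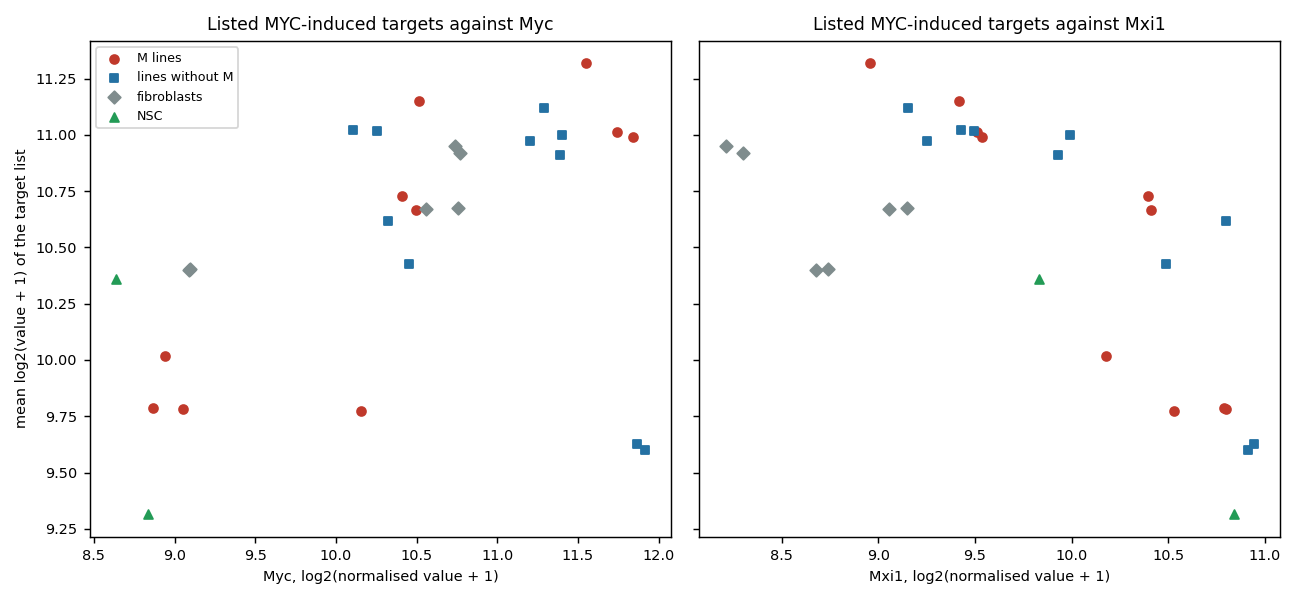
Mean log2(value + 1) of the 39 listed MYC-induced genes in each of the 28 libraries (vertical axis) against log2(value + 1) of Myc (left) and of Mxi1 (right), 1 point a library. The 2 embryonic KF libraries, at 9.60 and 9.63, lie at the right end of the Myc axis, and among miNSC libraries the target mean is lower where Mxi1 is higher.

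Across the 10 miNSC groups the target mean was described against each network gene. For Myc, Pearson's r was 0.38 and Spearman's rho 0.18 over the 10 groups, −0.30 without the 2 groups farthest from the median, and 0.86 (rho 0.62) over the 9 groups other than embryonic KF, a subset taken after the values were seen. For Mxi1, r was −0.87 and rho −0.96 over the 10 groups, −0.84 without the 2 farthest and −0.83 without embryonic KF. For Mycl the values were −0.78, −0.66, −0.63 and −0.77, and for Mxd3 r was 0.67 over the 10 groups, −0.05 without the 2 farthest and 0.43 without embryonic KF. For Max, r was 0.26 over the 10 groups, 0.30 without the 2 farthest and 0.60 (rho 0.58) without embryonic KF. For Mnt the 3 values of r were −0.21, −0.33 and −0.013, and for Mxd4 they were −0.27, −0.54 and −0.24. Passages 8 and 18 are the same line and all groups share the normalisation, so these are descriptions of 10 points.

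Genes that MYC is known to repress showed no single direction. Of 10 tested, 3 rose and 4 fell in embryonic KMF against KF (median −0.47), where 19.9% of all genes rose and 19.2% fell, and 2 rose and 3 fell in tail-tip 4F passage 8 against BKF (median −0.22), where 13.1% rose and 12.9% fell. In embryonic KMF against BKF 3 rose and 0 fell (median 0.32; 5.3% and 4.96% of all genes), and in tail-tip KMF against BKF 1 rose and 2 fell (median 0.01; 6.22% and 6.75%). In passage 18 against passage 8, 3 rose and 3 fell (median 0.58; 17.5% and 17.6%), and over all M lines against all lines without M, 1 rose and 2 fell (median 0.10; 13.1% and 13.4%). Ndrg1 and Ndrg2, of the N-myc downstream-regulated gene family, fell in both comparisons that add M, with −4.26 ± 0.50 and −3.06 ± 0.49 in embryonic KMF against KF and −3.77 ± 0.50 and −2.85 ± 0.49 in tail-tip 4F passage 8 against BKF. Cebpa, a differentiation factor, rose in both, by 2.63 ± 0.25 and 2.25 ± 0.25. The cell cycle inhibitor Cdkn1a rose by 1.22 ± 0.12 in the first comparison, and the related inhibitor Cdkn1b fell by 0.94 ± 0.10 in the second. Passage 18 against passage 8 gave the opposite signs, with Cdkn1b at 0.89 ± 0.10, Ndrg2 at 3.29 ± 0.49 and Cebpa at −2.15 ± 0.25.

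Cofactors through which MYC acts on chromatin and elongation were followed as a list of 15. Of these, 7 rose and 1 fell in embryonic KMF against KF (median 0.37), where 19.9% of all genes rose and 19.2% fell. In tail-tip 4F passage 8 against BKF 10 rose and 0 fell (median 0.50; 13.1% and 12.9% of all genes), while 0 rose and 7 fell in passage 18 against passage 8 (median −0.26; 17.5% and 17.6%). Where M replaced B, 0 rose and 0 fell in embryonic lines (median −0.04), where 5.3% of all genes rose and 4.96% fell. In tail-tip lines 2 rose and 2 fell (median 0.04), where 6.22% of all genes rose and 6.75% fell. The pooled M comparison had 4 higher and 1 lower (median 0.13), against 13.1% and 13.4% of all genes. Wdr5, a scaffold of histone methyltransferases that binds MYC, rose by 0.89 ± 0.09 and 0.59 ± 0.09 in the first comparisons and fell by 0.69 ± 0.09 in passage 18 against passage 8. Cdk9, the kinase of the elongation factor P-TEFb, had 0.75 ± 0.10, 0.42 ± 0.10 and −0.68 ± 0.10 in the same order, all called.

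The other lists held corepressors, genes that act on MYC protein, and further partners, on a background of 39.1% of all genes called in either direction in embryonic KMF against KF and 26.1% in tail-tip 4F passage 8 against BKF. Of 10 SIN3 and deacetylase corepressor genes, 4 rose and 0 fell in embryonic KMF against KF, with the histone chaperone Rbbp7 at 1.44 ± 0.21 and the scaffold Sin3a at 0.74 ± 0.12, and 1 rose and 1 fell in tail-tip 4F passage 8 against BKF, where Sap30 fell by 1.41 ± 0.20; in passage 18 against passage 8, 0 rose and 3 fell (35.1% of all genes called). Of 13 genes that control MYC stability, 6 rose and 3 fell in embryonic KMF against KF, 4 rose and 1 fell in tail-tip 4F passage 8 against BKF, and 2 rose and 4 fell in passage 18 against passage 8. Where M replaced B, 0 of 10 corepressor genes were called in embryonic lines and 1 in tail-tip lines, and 3 and 2 of the 13 stability genes were called (10.3% and 13% of all genes). Skp2, a ubiquitin ligase subunit that targets MYC, rose by 1.52 ± 0.17 in embryonic KMF against KF and by 0.66 ± 0.17 in tail-tip 4F passage 8 against BKF. The ligase subunit Fbxw7, which marks phosphorylated MYC for degradation, rose by 0.39 ± 0.08 in tail-tip 4F passage 8 against BKF. Of 5 further network partners, 4 were tested: Mxd1, another MXD repressor, fell by 1.58 ± 0.26 in embryonic KMF against KF and rose by 1.46 ± 0.26 in passage 18 against passage 8, and Mga, a MAX partner, rose by 0.45 ± 0.15 in tail-tip 4F passage 8 against BKF.

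The genes whose group levels were most like those of each network gene, by Pearson's r of log2 group means over the 14 groups among 12412 candidates, differed for each member. Mycl was followed most closely by Myt1 (r = 0.99), Synrg (0.99) and Cdk5r1 (0.98), and Mxd3 by Ube2c (0.97), Tpx2 (0.96) and Cenpn (0.96). Mxi1 was most like Dclk1 (0.96), Aph1c (0.96) and Samd14 (0.95), and Max was most like Hoxc6 (0.96), Psmc6 (0.96) and Ptpn2 (0.95). The highest values were lower for Myc with Dusp4 (0.85), Rnf4 (0.84) and Suclg1 (0.81), for Mnt with Armcx5 (0.88) and Tut7 (0.82), and for Mxd4 with Ndrg3 (0.83), Zfp869 (0.82) and Bbc3 (0.81). Myt1 was at 0 in all 6 fibroblast libraries and had 142 to 1742 in M lines and 52 to 1580 in lines without M. Its shared absence from fibroblasts enters the r with Mycl. Hoxc6 had 0 to 2 in M lines, 0 to 1 in lines without M, 12 to 596 in fibroblasts and 0 in NSC, so its r with Max rests on the 3 fibroblast groups.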

How the data were processed

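The authors' deposited table holds 1 normalised score per gene and library, in whole numbers with nearly equal library totals. Up to 10 genes in a library were tied at the highest value of the table, 92914. The normalisation is not given in the sources used here. Total RNA was enriched for mRNA with oligo(dT), per the labels' protocols, and the submitters' processing notes name Bowtie2 2.0, RSEM and mm10. Because the deposited scores are not counts, no count model was used, and the depth is unknown.

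From these values, log2(value + 1) was computed and the 16275 of 17295 genes whose mean value reached 10 across all 28 libraries were tested. A fold change on this scale understates the change of low genes. A single limma fit (3.58.1, R 4.3.3, with a variance trend) held all 14 groups, so groups of 2 share 1 estimate of the spread. Comparisons were two-sided contrasts of group means with Benjamini-Hochberg adjustment over all tested genes, called at an adjusted p under 0.05, and ± gives the SE. In all, 14 comparisons were made. The fit was tested on simulated data.

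The network genes are named throughout, with the 4 genes of smallest adjusted p of a list as candidates for naming, and the 3 named genes most like each member among those with a group mean of at least 100. The members and lists were chosen with earlier results of these data known, the lists from general knowledge. Replicate numbers did not pair the samples: over 78 pairs of groups the correlation of deviations ran from −0.055 to 0.071. Marker lists of other cell types summed to the following ranges in M lines, lines without M, NSC and fibroblasts: neuron 20695 to 29242, 15624 to 33315, 33938 to 93892 and 51 to 602; astrocyte 5141 to 14916, 9179 to 28365, 36765 to 38394 and 4891 to 6821; oligodendrocyte 49151 to 62927, 49542 to 64431, 46052 to 52076 and 202 to 298. Microglia and macrophage markers summed to 14 to 205, 10 to 123, 4 to 14 and 251 to 880, endothelial markers to 89 to 200, 116 to 204, 109 to 130 and 231 to 405, keratinocyte markers to 70 to 133, 80 to 159, 69 to 87 and 56 to 113, and pluripotency markers to 58 to 113, 45 to 96, 49 to 60 and 0 to 35. Their part in the results was not tested. Some items are not reported here. Promoter sequences are from RefSeq (GRCm38.p6).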

Additional observations from a re-analysis of the deposited data

Results flagged for a closer look

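The Mxd3 value of 32 in the second library of tail-tip 4F at passage 18 lay far below the other 9 libraries of M lines; it was the 1 hit in 21 checks for such a library, and chance gives about 1 in 20.

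The contrasts that add M, tail-tip 4F passage 8 against BKF minus embryonic KMF against KF, were compared in a limma test of the difference itself. They differed for Mycl by 2.62, for Mnt by 1.34 and for Mxd3 by −3.90. Origin and background cocktail (BKF or KF) change together here and cannot be told apart. The Mxd3 call did not hold when any single library was left out. The effect of KMF against BKF, tail-tip minus embryonic, differed for Myc by −1.82 and for Mnt by −1.09. This second test was added after the values were seen; it called 2 of the 7 network genes against 13.1% of all genes, and the first called 3 of 7 against 22.9%. The Mnt difference of −1.09 was lost in 4 of 8 fits that left out 1 library (adjusted p up to 0.0716), and the Mnt difference of 1.34 was lost with the compared groups alone (adjusted p = 0.0597).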

How the results depend on the processing

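Depth is unknown, groups hold 2 libraries each, and lines with and without M differ in origin, strain and the letter B; the causes of the changes below were not tested unless fewer samples entered a fit. DESeq2 and edgeR were not run because the values are not counts.

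Pseudocounts, filters, quantile normalisation, the variance settings and the replicate block changed few calls: with the replicate block the single lost call was Mxd3 in the difference of the M contrasts (−3.90, adjusted p = 0.0538). Pseudocount 0.5, quantile normalisation (−4.04), median scaling and no variance trend ended the same Mxd3 call. Same-numbered libraries showed no pairing (0 of 78 correlations over 0.1). Median scaling turned Max in embryonic KMF against BKF to 0.0311 from a value near 0. In tail-tip BKF against fibroblasts the median of all genes was 0.13, and it was 0.10 after quantile normalisation.

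The count of genes called between M lines and lines without M was 4314, 2504 with tail-tip lines only and 0 with group means as samples. With group means the counts were 8029 and 7829 against fibroblasts and 116 and 95 against NSC for M lines and lines without M. With the compared groups alone, 4F passage 8 against BKF called 561, tail-tip KMF against BKF 430 and passage 18 against passage 8 2169. With NSC left out, embryonic KMF against BKF called 2724, tail-tip KMF against BKF 3516 and the difference of these contrasts 3519. Leaving out 1 library gave 2726 to 3885 genes for 4F passage 8 against BKF, 868 to 982 for embryonic and 894 to 2867 for tail-tip KMF against BKF, and 1355 to 2802 for their difference.

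In M lines against lines without M, Myc was 0.15 in embryonic lines, −0.54 in tail-tip lines and −0.66 with group means; Mycl was −1.08 and Max 0.0047 in embryonic lines; Mxd3 was −1.12 in tail-tip lines; and Mxi1 was −0.0634 without passage 18, −0.46 without ICR, −0.92 in embryonic and −0.53 in tail-tip lines, and −0.39 in line means without ICR. Mxd4 against NSC was −0.0365 in M lines without passage 18.

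Leaving out 1 library, Mxi1 ran from −0.0341 to 0.0582 in M lines against lines without M. In embryonic KMF against KF, Max ran from −0.0727 to 0.11 and Mnt from −0.0576 to 0.10. In 4F passage 8 against BKF, Myc ran from 0.13 to 1.16 and Max from −0.20 to 0.27. In embryonic KMF against BKF, Mycl ran from −0.17 to 0.25, Max from −0.0232 to 0.00657 and Mxd3 from −0.15 to 0.44. In tail-tip KMF against BKF, Max ran from −0.15 to 0.0295, Mnt from −0.0189 to 0.42 and Mxi1 from −0.00691 to 0.31. In passage 18 against passage 8, Max ran from −0.30 to 0.16 and Mnt from −0.38 to 0.28. Mxd4 in lines without M against fibroblasts ran from −0.0433 to 0.0114. Against NSC in M lines, Max ran from −0.00923 to 0.21, Mnt from −0.0881 to 0.35, Mxd4 from −0.53 to 0.67 and Mxi1 from −0.79 to 0.22, and in lines without M, Mxd4 ran from −0.96 to 0.24 and Mxi1 from −0.80 to 0.21. In the difference of the M contrasts, Max ran from −0.22 to 0.25, Mxd4 from −0.0288 to 0.043 and Mxi1 from −0.28 to 0.18, and in that of the KMF against BKF contrasts Max ran from −0.15 to 0.0378. None of these was called in the fit with all libraries.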
